A study of Mus musculus with 9 samples.

Results

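The 9 genes Pdk4, Angptl4, Ucp2, Cpt1a, Plin2, Txnip, Acot1, Acot2 and Slc25a20 are known from the response to fasting and from fatty acid oxidation. They were followed here through the cell labels of a mouse thyroid single-cell study. They are 9 of the 52636 genes in the deposited count table, found by symbol. The set was chosen by known function and by measured values: earlier results of these libraries were in view, with levels in the thyrocyte label Th1 among them. The Th1 differences between groups are therefore given as a description with no test, and the tests in other labels are not independent evidence.

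Thyroids came from male C57BL/6 mice, aged 10 to 12 weeks by the series text and 10 to 14 weeks by the sample labels, and single cells were profiled with a droplet 3' assay. Every mouse received a single intraperitoneal antibody injection and was studied at 7 days. The control group, RW, received an anti-ragweed antibody at 40 mg/kg. The aJ1aJ2 group received antibodies against the Notch ligands Jag1 and Jag2 at 20 mg/kg each, and the aN1aN2 group received antibodies against the receptors Notch1 at 5 mg/kg and Notch2 at 10 mg/kg. Each group had 3 pools of 6 mice, and the pool is the replicate. The antibodies acted on the whole animal and all groups carried one. Fasting is not among the listed treatments, and feeding state was not given in the sources used here. The sample titles carry internal numbers in 3 series: RW 3 and aJ1aJ2 1 share series A, RW 1, RW 2, aJ1aJ2 3 and aJ1aJ2 4 share series B, and the 3 aN1aN2 pools make up series C. Receptor blockade and series C therefore cannot be told apart in any comparison below.

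The table held 10186 cells under 16 labels given by the authors, with 583 to 1805 cells and 3013324 to 11880793 unique molecular identifiers (UMIs, counted RNA molecules) per pool. Levels are given as CPM, the UMIs of a gene scaled to the same total of UMIs for every label and pool. The labels held their defining markers in the RW pools: the thyrocyte marker list summed to 89604 to 96866 CPM in Th1, the endothelial list to 12319 to 13393 in EC1, the fibroblast list to 31070 to 34451 in F and the smooth muscle list to 27399 to 38296 in SM. Th3 was mixed, with a thyrocyte sum of 61145 to 97240 and a C cell sum of 36389 to 65758. The median Th1 cell held 12535 to 22558 UMIs in RW pools, 9968 to 15314 in aJ1aJ2 pools and 5737 to 7558 in aN1aN2 pools. Libraries shared 15 of 10171 distinct cell barcodes. White adipocytes also use many of these genes. In aN1aN2 all 6 of their markers were at 0 in Th1, EC1, EC3, EC4 and SM, 1 of 6 was detected in F at a sum of 0 to 9.34 CPM, 4 of 6 in EC2 at 12.1 to 42.9 CPM and 5 of 6 in Th3 at 0 to 4676 CPM. In sums over cells, fewer expressing cells and less RNA per cell cannot be told apart.

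In the fasted state, tissues turn from glucose to fatty acids. Fatty acids released from triglyceride bind nuclear receptors of the PPAR family, and low insulin frees FOXO factors to enter the nucleus, and both raise genes that spare glucose and burn fat. PDK4 switches off pyruvate dehydrogenase, CPT1A and the carrier SLC25A20 bring fatty acyl groups into mitochondria, and thioesterases, droplet proteins and secreted ANGPTL4 set how much fatty acid is free, stored or taken up from blood. TXNIP, which restrains glucose uptake and binds thioredoxin, is raised by glucose through the MondoA and ChREBP factors and also by FOXO factors.

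The upstream sequences of Txnip and Pdk4 are shown as examples. Both genes were higher in every aN1aN2 pool than in every RW pool in Th1, F and EC3. For Pdk4 this is a description in all 3 labels, with few UMIs in EC3. Acot1 was likewise higher in Th1, F and EC1, and its sequence is not shown. They are the bases 5' of the start in RefSeq (GRCm38.p6), without bases inside the annotated gene, at chr3:96557707-96557956 on the plus strand for Txnip and at chr6:5496310-5496528 on the minus strand for Pdk4. Capitals mark a FOXO site (GTAAACA), a variant E box of the kind carbohydrate response factors bind (CACGAG) and CCAAT boxes (CCAAT, or ATTGG on the other strand).
Txnip: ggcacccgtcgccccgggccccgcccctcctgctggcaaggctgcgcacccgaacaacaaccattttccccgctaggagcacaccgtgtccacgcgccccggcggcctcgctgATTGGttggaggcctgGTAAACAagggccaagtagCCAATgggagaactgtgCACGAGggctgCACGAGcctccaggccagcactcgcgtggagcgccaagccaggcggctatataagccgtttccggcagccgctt
Pdk4: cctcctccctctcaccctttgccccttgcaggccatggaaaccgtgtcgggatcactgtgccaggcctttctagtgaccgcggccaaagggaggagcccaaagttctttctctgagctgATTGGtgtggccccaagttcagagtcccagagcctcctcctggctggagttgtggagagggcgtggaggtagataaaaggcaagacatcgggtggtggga
Txnip held GTAAACA at 121 bases before its start, CACGAG at 85 and 74 bases before it and CCAAT at 137 and 102 bases before it. Pdk4 held 1 CCAAT box, 131 bases before its start. Each motif was searched on both strands of the window from 250 bases before to 50 after the start, and none of the marked matches overlapped. Among 32544 such windows GTAAACA was found in 3.66%, CACGAG in 6.50% and CCAAT in 37.4%. Of the 8 genes with a window, 1 held GTAAACA and 6 held CCAAT. The nuclear receptor core element AGGTCA was in Cpt1a and Plin2 and in 16.2% of windows, and its perfect direct repeat with 1 base between (DR1), the kind of element PPAR dimers bind, was in 0 of the 8 and in 0.0399% of windows. A missing match says only that these letters are not in this window.

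In Th1, 7 of the 9 genes were higher in every aN1aN2 pool than in every RW pool, Plin2 was lower in every pool, and Acot2 overlapped. Of 10627 genes tested in Th1, 23.4% were higher in every aN1aN2 pool and 23.9% lower. The log2 changes of the 9 genes ranged from 3.96 for Pdk4 to -0.51 for Plin2, with a median of 0.81 over the 9 genes and 0.02 over all genes. The choice of genes used this contrast, so nothing is read from the counts.

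**Figure D1:**
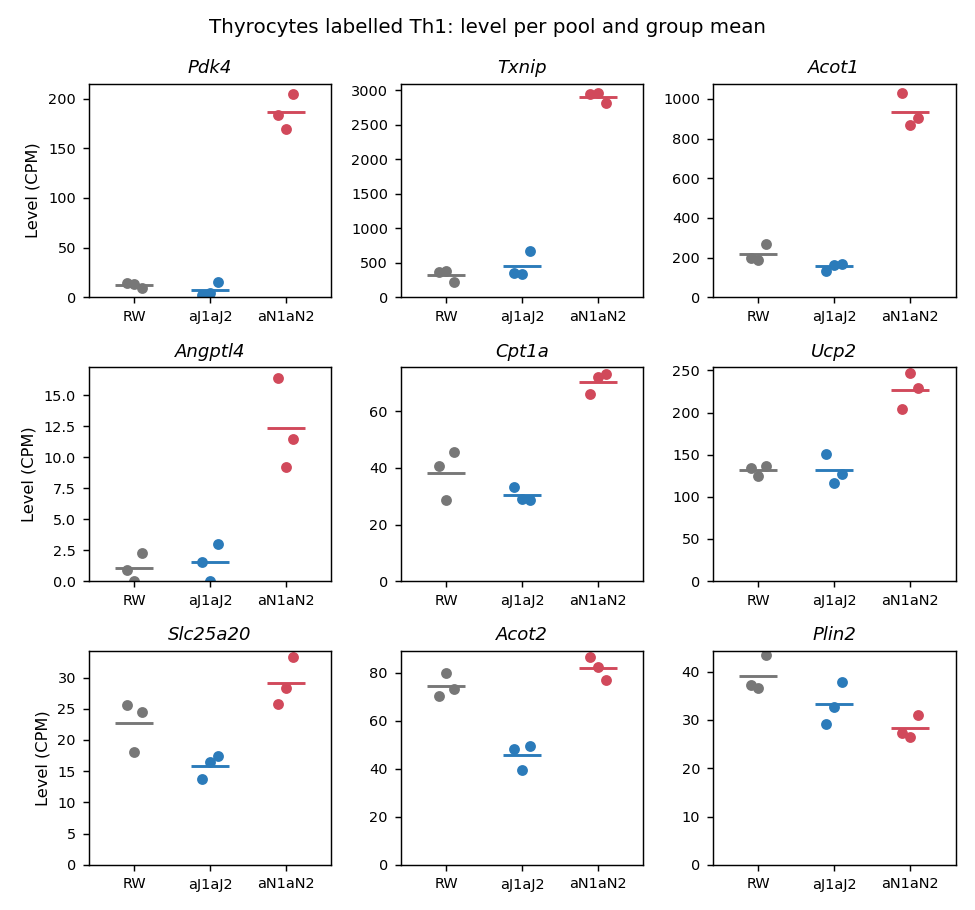
Levels of the 9 genes in Th1 thyrocytes (y axis, CPM, each panel from 0 on its own scale) by group (x axis), 1 point per pool of 6 mice with 3 pools per group and a bar at the group mean. The aN1aN2 points of Pdk4, Txnip, Acot1 and Angptl4 sit far above the others (Pdk4 170 to 205 against 8.98 to 14.4 in RW), those of Plin2 below the RW points, and those of Acot2 among them.

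Pdk4, the kinase that inactivates pyruvate dehydrogenase, is on chromosome 6 (5483351 to 5496309, minus strand, GRCm38). In Th1 it stood at 14.4, 13.3 and 8.98 CPM in RW 1, 2 and 3, at 2.56, 4.46 and 15.6 CPM in aJ1aJ2 1, 3 and 4, and at 183, 170 and 205 CPM in aN1aN2 1, 2 and 3. All aN1aN2 pools were above all others, while the aJ1aJ2 pools spanned the RW range. The log2 change of aN1aN2 against RW was 3.96 (SE 0.28). After thinning every Th1 cell to 2000 UMIs, 2.22% to 3.57% of RW cells, 0%, 1.04% and 2.65% of aJ1aJ2 cells, and 27.0%, 27.0% and 28.6% of aN1aN2 cells held a Pdk4 UMI. The 0 of 90 cells in aJ1aJ2 1 allows a share of up to 3.33% with a UMI at that depth only, since the same cells held 5 Pdk4 UMIs before thinning. EC1 cells at the same thinned depth, where Pdk4 was near its floor, held it in 0% to 1.11% (RW) and 0% to 2.56% (aN1aN2). Thinning left out at most 1 cell of an RW or aJ1aJ2 pool and 6, 13 and 6 cells of the aN1aN2 pools, which had fewer UMIs. Without it, 19.9% to 25% of RW and 53.2% to 59.5% of aN1aN2 Th1 cells held a Pdk4 UMI.

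Txnip lies on chromosome 3 (96557957 to 96561883, plus strand). Its Th1 levels were 369, 386 and 216 CPM in RW, 344, 337 and 672 CPM in aJ1aJ2, and 2946, 2956 and 2816 CPM in aN1aN2. The aN1aN2 pools were close together and above every other pool, a log2 change of 3.18 (SE 0.24). At 2000 UMIs per cell, 38.1% to 48.8% of RW and 96.4% to 99.3% of aN1aN2 thyrocytes held a Txnip UMI. Without thinning the shares were 93.3% to 96.4% and 98.4% to 100%. The antisense gene Gm15441 spans Txnip on the opposite strand, and strand use in the counting is not given in the sources used here. Its own Th1 counts were 36 UMIs in RW and 16 in aN1aN2, or 3.20 and 3.70 CPM pooled. In the same order, it had 3.31 and 12.4 CPM in EC1 (17 and 14 UMIs) and 2.87 and 21.1 in EC4 (1 and 10 UMIs). It had 9.55 and 4.41 CPM in EC2 (4 and 1 UMIs) and 4.89 and 4.49 in EC3 (7 and 2 UMIs). Its part in the Txnip counts was not tested.

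The thioesterases Acot1 and Acot2 split fatty acyl-CoA into free fatty acid and CoA, ACOT1 in the cytosol and ACOT2 in mitochondria, and their genes are neighbours on chromosome 12 (84009490 to 84018371 and 83987861 to 83993873). Acot1 stood at 198, 189 and 270 CPM in RW, 133, 165 and 169 CPM in aJ1aJ2, and 1032, 869 and 903 CPM in aN1aN2, a log2 change of 2.09 (SE 0.14) for aN1aN2. Acot2 stood at 70.2, 80.0 and 73.2 CPM in RW, 48.1, 39.7 and 49.3 CPM in aJ1aJ2, and 86.5, 82.5 and 76.8 CPM in aN1aN2. Acot1 thus separated aN1aN2 from both other groups, while Acot2 was lowest in aJ1aJ2 and overlapped between RW and aN1aN2 (log2 change 0.15, SE 0.13). The longest transcripts were 83.9% identical over 1709 aligned bases, but their last 500 bases, near which a 3' assay reads, were 56.7% identical with no shared run over 10 bases.

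Angptl4 (chromosome 17, 33773750 to 33781830) encodes a secreted inhibitor of lipoprotein lipase. In Th1 it was scarce, at 0.888, 0 and 2.29 CPM in RW, 1.54, 0 and 3.00 CPM in aJ1aJ2, and 16.4, 9.24 and 11.5 CPM in aN1aN2 (16, 8 and 55 UMIs in all). The aN1aN2 pools lay above the others, which overlapped. Its log2 change in aN1aN2 was 3.14 (SE 0.62), and 4.17 without RW 3.

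Cpt1a (chromosome 19, 3322334 to 3385733), the outer-membrane enzyme that commits fatty acids to the carnitine shuttle, had 40.9, 28.7 and 45.7 CPM in RW, 33.3, 29.1 and 28.8 CPM in aJ1aJ2, and 66.3, 72.0 and 73.3 CPM in aN1aN2 Th1 cells (log2 change 0.81, SE 0.16). Slc25a20 (chromosome 9, 108662088 to 108684641), the carnitine-acylcarnitine carrier of the inner membrane, had 25.5, 18.0 and 24.5 CPM in RW, 13.8, 16.4 and 17.4 CPM in aJ1aJ2, and 25.7, 28.3 and 33.2 CPM in aN1aN2 (0.28, SE 0.18). The lowest aN1aN2 pool of Slc25a20 was 25.7 against 25.5 in the highest RW pool, so the groups only just parted.

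Ucp2 (chromosome 7, 100493337 to 100502020), an inner-membrane carrier of the uncoupling protein family, stood at 134, 124 and 137 CPM in RW, 151, 116 and 127 CPM in aJ1aJ2, and 204, 247 and 229 CPM in aN1aN2 thyrocytes (log2 change 0.78, SE 0.13). Plin2 (chromosome 4, 86648386 to 86670060), a coat protein of lipid droplets, went the other way, with 37.3, 36.7 and 43.4 CPM in RW, 29.2, 32.6 and 37.9 CPM in aJ1aJ2, and 27.4, 26.5 and 30.9 CPM in aN1aN2 (-0.51, SE 0.15).

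Under ligand blockade, 0 of the 9 genes were higher in every aJ1aJ2 pool of Th1 than in every RW pool and 3 (Acot1, Acot2 and Slc25a20) were lower, against 7.41% and 8.31% of all tested genes. At an edgeR adjusted p under 0.05, 0.612% of all genes were called. The log2 changes of the 3 genes were -0.52 (SE 0.14), -0.72 (SE 0.13) and -0.57 (SE 0.18). With the TMM scaling of the fit in place of plain CPM, Plin2 (-0.27, SE 0.14) was lower in every pool too, making 4. The median of the 9 was -0.41, against 0.01 over all genes. The Pdk4 change was -0.87 (SE 0.39), and -1.64 without aJ1aJ2 4. The Angptl4 change of -0.37 (SE 0.90) rested on 16 and 8 UMIs, and was 0.67 without aJ1aJ2 3, 0.69 without RW 3, 0.21 with DESeq2 and 0.18 with Th1 and Th3 pooled. Within title series B the Acot1 change was -0.25. Series A holds 1 pool of each group, so it gives no value with an error.

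**Figure D2:**
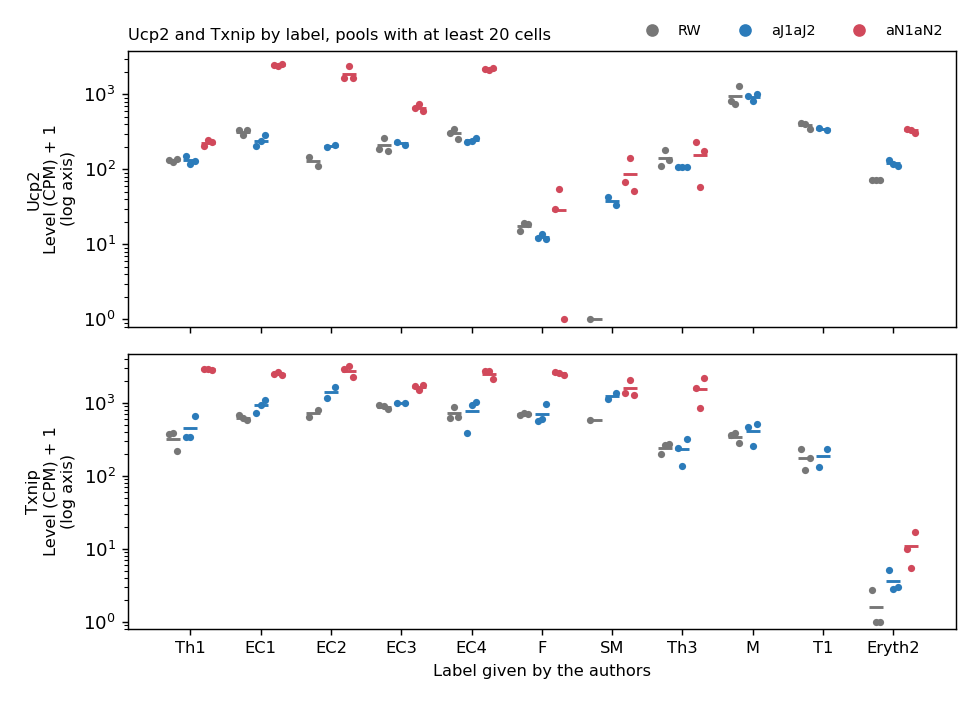
Ucp2 (top) and Txnip (bottom) by cell label (x axis), as CPM plus 1 on a log axis, 1 point per pool with at least 20 cells and a bar at the mean, coloured by group. Txnip is higher in aN1aN2 across thyrocyte, endothelial and fibroblast labels, while Ucp2 is higher mainly in EC1 (2422 to 2541 against 283 to 331 in RW), EC2, EC3, EC4 and Eryth2 and low in F.

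The order of labels in the RW pools differed by gene, over the 12 labels with at least 2 RW pools of 20 cells. Ucp2 was highest in macrophages (M, 734 to 1312 CPM), then in the lymphocyte label T1 (342 to 421) and EC1 (283 to 331), and lowest in fibroblasts (14.1 to 18.5). From EC1 down through EC4, EC3, Th3, Th1, EC2 and S, each label overlapped the next. Acot1 was highest in Th1 (189 to 270) and Th3 (110 to 226), whose ranges overlapped, and the next label, S, had 26.0 to 29.8. Angptl4 was highest in F (100.3 to 162) and S (60.7 to 134), which overlapped, ahead of EC3 (9.51 to 35.1). Pdk4 was at most 59.7 in any of these RW pools, its 5 highest labels (S, Th3, F, EC2, Th1) overlapped from one to the next, and it was at 0 in M, T1 and both erythroid labels. Txnip lay between 593 and 927 CPM in the 4 endothelial labels and F, at 216 to 386 in Th1 and at 0 to 4.79 in the erythroid labels. Plin2 was highest in M (104 to 168), and the ranges of the 8 labels from EC2 to EC3 below it overlapped from one to the next.

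In the endothelial label EC1, Ucp2, Txnip and Cpt1a were called higher in aN1aN2 than in RW (edgeR adjusted p under 0.05), where 17.8% of 9369 genes were called and 8.83% called higher. Some genes met the filter on low counts only with the aN1aN2 pools, and most of these had to be high there to be tested. These were Angptl4 and Acot1 in EC1, Angptl4 and Plin2 in EC2, Pdk4 and Slc25a20 in EC3, Pdk4 and Acot1 in F, Pdk4 and Ucp2 in SM, Pdk4 and Acot2 in Th3, Cpt1a in EC4, Ucp2 in Eryth1 and Angptl4 in Th1. Those of their aN1aN2 changes that are given are descriptions, and no member count over the tested genes is given. Ucp2 stood at 331, 283 and 331 CPM in RW, 206, 235 and 284 CPM in aJ1aJ2, and 2497, 2422 and 2541 CPM in aN1aN2. The aN1aN2 pools lay together far above the rest, a log2 change of 2.95 (SE 0.13, edgeR adjusted p = 2.16e-12). Thinned to 2000 UMIs, 41.1% to 45.6% of RW and 93.6% to 100% of aN1aN2 EC1 cells held a Ucp2 UMI. Without thinning the shares were 70.3% to 75.7% and 96.6% to 100%, and thinning left out 6, 2 and 14 RW and 39, 18 and 20 aN1aN2 cells. Dnajb13, which overlaps Ucp2 on the opposite strand, had 1 UMI in RW and 1 in aN1aN2 there.

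Txnip in EC1 was 687, 614 and 593 CPM in RW, 727, 944 and 1114 CPM in aJ1aJ2, and 2492, 2627 and 2408 CPM in aN1aN2, rising by 1.96 log2 units (SE 0.14, edgeR adjusted p = 1.40e-09). Angptl4 counted 1 UMI in 661 RW cells, 2 in 678 aJ1aJ2 cells and 47 in 264 aN1aN2 cells. The ratio of aN1aN2 to RW was 214, with a 95% counting interval of 36.5 to 8615 that covers counting error only. Cpt1a was at 47.5, 46.3 and 47.9 CPM in RW and 68.5, 109 and 63.3 CPM in aN1aN2 (log2 change 0.74, SE 0.20, edgeR adjusted p = 0.0139). Its call rested on the high pool aN1aN2 2, without which the adjusted p was 0.209.

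Acot1 in EC1 was 4.55, 2.24 and 3.11 CPM in RW and 45.7, 24.0 and 22.2 CPM in aN1aN2, without overlap (log2 change 3.18, SE 0.46, with no p). Thyroglobulin RNA in EC1 was also higher in aN1aN2, at 1290 to 1871 CPM against 678 to 949 in RW. Thyrocyte RNA carried in proportion to thyroglobulin would amount to 10.7 to 20.1 CPM of Acot1 in the aN1aN2 pools and 1.75 to 2.10 in RW; its part in the result was not tested. The same scaling gave at most 3.98 CPM for Ucp2, 57.5 for Txnip and 0.320 for Angptl4 in aN1aN2 EC1. Plin2 (0.38, edgeR adjusted p = 0.230), Slc25a20 (0.49, 0.474) and Acot2 (0.31, 0.685) did not pass the test. Pdk4 was too rare to test in EC1, at 1.50 to 4.44 CPM in RW and 18.3, 10.7 and 6.33 CPM in aN1aN2, where the thyroglobulin scaling gave 2.18 to 3.58.

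The other endothelial labels were tested separately. In EC2, Ucp2 and Txnip were called higher (background 15.5% called, 8.85% higher), in a fit without RW 3 and aJ1aJ2 1, which had 15 and 16 cells. Ucp2 was 147 and 111 CPM in RW 1 and 2 and 1631, 2416 and 1635 CPM in aN1aN2 (log2 change 3.82, SE 0.27, edgeR adjusted p = 9.03e-07). Txnip was 650 and 805 CPM against 2919, 3180 and 2258 CPM (1.94, SE 0.23, edgeR adjusted p = 4.40e-05).

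Angptl4 in EC2 was 19.0 and 17.1 CPM in RW 1 and 2, 11.4 and 54.2 in aJ1aJ2 3 and 4, and 161, 134 and 195 in aN1aN2. The shallow RW 3 pool, outside the fit, had 132 CPM. The fitted change was 3.06 (SE 0.72), and 1.80 with pools of 10 or more cells, which let RW 3 and aJ1aJ2 1 in. The 4 smooth muscle and pericyte markers, all detected, had sums of 574 to 1884 CPM in RW EC2 and 1056 to 6833 CPM in aN1aN2 EC2; their part was not tested. Plin2 was 85.4 and 77.1 CPM in RW and 136 to 172 in aN1aN2 (0.88, SE 0.35).

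In EC3, whose lymphatic marker sum was 451 to 852 CPM in RW and 127 to 642 CPM in aN1aN2, Ucp2 and Txnip were called higher (background 5.91% called, 3.51% higher) in a fit without aJ1aJ2 1 (17 cells). Ucp2 was 187, 264 and 173 CPM in RW and 650, 740 and 601 CPM in aN1aN2 (1.70, SE 0.20, edgeR adjusted p = 0.000226). Txnip was 927, 909 and 828 CPM against 1694, 1516 and 1777 CPM (0.94, SE 0.17, edgeR adjusted p = 0.00387, or 0.208 with the replicate block). Pdk4 was 3.90, 3.80 and 0 CPM against 23.2, 42.4 and 39.6 CPM, a change of 3.55 (SE 0.88) resting on 4 and 16 UMIs. Angptl4 was 35.1, 9.51 and 12.7 CPM in RW and 15.5, 18.2 and 13.2 CPM in aN1aN2, fully overlapping. Smooth muscle and pericyte markers summed to 2617 to 4203 CPM in RW and 733 to 921 CPM in aN1aN2 EC3; their part was not tested.

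In the shallow label EC4, Ucp2 and Txnip were called higher (background 21.1% called, 11.2% higher). Ucp2 was 309, 347 and 250 CPM in RW, 232, 237 and 263 CPM in aJ1aJ2, and 2164, 2148 and 2270 CPM in aN1aN2 (2.79, SE 0.19, edgeR adjusted p = 3.64e-11). Txnip was 624, 892 and 639 CPM in RW against 2754, 2719 and 2137 CPM in aN1aN2 (1.76, SE 0.23, edgeR adjusted p = 1.84e-06). Angptl4 counted 1 UMI in RW and 34 in aN1aN2, a ratio of 25.0 (95% counting interval 4.19 to 1015).

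**Figure D3:**
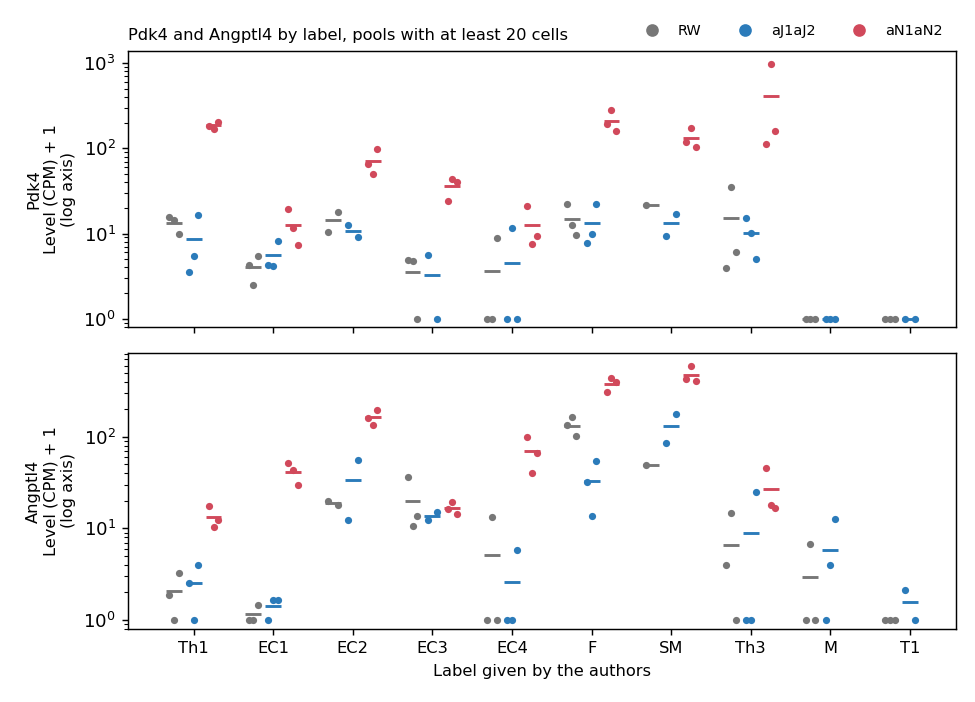
Pdk4 (top) and Angptl4 (bottom) by cell label (x axis), as CPM plus 1 on a log axis, 1 point per pool with at least 20 cells and a bar at the mean, coloured by group. Pdk4 is high in aN1aN2 in Th1, F, SM and Th3 (F 159 to 278 against 8.72 to 21.1 in RW), and the highest Th3 point, 977, comes mostly from 1 muscle-like cell. Angptl4 in F is lowest in aJ1aJ2 and highest in aN1aN2.

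In fibroblasts (F), Txnip, Angptl4 and Plin2 were called higher in aN1aN2 (background 19.8% called, 9.17% higher). Pdk4 was 21.1, 11.6 and 8.72 CPM in RW, 6.72, 8.79 and 21.2 CPM in aJ1aJ2, and 192, 278 and 159 CPM in aN1aN2 (log2 change 3.95, SE 0.39, a description). Thinned to 2000 UMIs, 0% to 4.35% of RW and 28.1%, 42.4% and 35.3% of aN1aN2 fibroblasts held a Pdk4 UMI, over 17 to 44 cells per pool. Without thinning, which left out 14, 7 and 3 RW and 15, 8 and 16 aN1aN2 cells, the shares were 7.69% to 9.80% and 31.9% to 51.2%. Plin2, which was lower in aN1aN2 thyrocytes, was 28.1, 30.1 and 61.0 CPM in RW and 163, 175 and 74.7 CPM in aN1aN2 fibroblasts (1.97, SE 0.35, edgeR adjusted p = 0.000536).

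Txnip in F was 685, 724 and 715 CPM in RW, 574, 603 and 960 CPM in aJ1aJ2, and 2666, 2601 and 2438 CPM in aN1aN2 (1.89, SE 0.21, edgeR adjusted p = 3.07e-06). Acot1 was 7.03, 6.94 and 8.72 CPM in RW, 15.7, 25.1 and 21.2 CPM in aJ1aJ2, and 67.6, 48.3 and 56.0 CPM in aN1aN2 (2.93, SE 0.50, a description). Thyroglobulin scaling gave 4.00 to 7.98 CPM of Acot1 in the aN1aN2 pools, and the part of thyrocyte RNA was not tested. Cpt1a was not tested in F alone, at 35.1, 50.9 and 34.9 CPM in RW and 33.8, 18.1 and 9.34 CPM in aN1aN2. Ucp2 was also too rare, with 16 UMIs in RW and 14 in aN1aN2.

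Angptl4 passed the test under both blockades in F. It stood at 133, 162 and 100.3 CPM in RW, 31.4, 12.6 and 53.0 CPM in aJ1aJ2, and 304, 441 and 392 CPM in aN1aN2, with no overlap between groups. It fell in aJ1aJ2 by 2.08 log2 units (SE 0.34, edgeR adjusted p = 0.00639), in a fit where 0.579% of all genes were called and 0.186% called lower. It rose in aN1aN2 by 1.51 (SE 0.30, edgeR adjusted p = 0.00134), and the direct contrast of aN1aN2 against aJ1aJ2 was 3.59 (SE 0.33, edgeR adjusted p = 7.84e-07). The aJ1aJ2 call was lost without RW 2 (0.0733) and was -2.23 (0.00875) within title series B.

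In the smooth muscle label SM, only RW 3 held 20 or more cells among the RW pools, so aN1aN2 was compared with aJ1aJ2 3 and 4, and Angptl4 was called higher (background 4.05% called, 1.26% higher). Angptl4 was 84.1 and 176 CPM in those aJ1aJ2 pools and 424, 595 and 406 CPM in aN1aN2, with 19.7, 0 and 48.8 CPM in the RW pools of 8, 5 and 31 cells. The change was 1.68 (SE 0.39, edgeR adjusted p = 0.00599). It failed in 4 of 9 alternatives, leaving out aJ1aJ2 3 or aN1aN2 2, DESeq2 and no filter on low counts, with adjusted p up to 0.205. Pdk4 counted 3 UMIs in aJ1aJ2 and 26 in aN1aN2, a ratio of 14.0 (95% counting interval 4.28 to 72.1).

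In Th3, Txnip and Acot1 were called higher in aN1aN2 (background 5.03% called, 2.49% higher). Pdk4 was 2.93, 34.4 and 5.08 CPM in RW and 110, 977 and 159 CPM in aN1aN2. Of its 190 UMIs in aN1aN2, 163 came from 1 cell of 119487 UMIs that held 4032 Ckm and 5308 Acta1 UMIs, both skeletal muscle genes. Thyroglobulin scaling gave 43.5 to 216 CPM of Pdk4 in these pools. The change was 5.51 (SE 1.12) with that cell, and 3.50 without the 18 of 901 Th3 cells whose muscle markers exceeded 1% of their UMIs, when 26 UMIs were left. The 5 muscle markers, all detected, summed to 117 to 620 CPM in RW and 44.1 to 94979 CPM in aN1aN2 before that step. C cell markers summed to 36389 to 65758 CPM in RW and 636 to 10422 CPM in aN1aN2; their part in the Th3 results was not tested.

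Txnip in Th3 was 200, 261 and 269 CPM in RW against 1588, 856 and 2227 CPM in aN1aN2 (2.74, SE 0.39, edgeR adjusted p = 0.00733). Acot1 there was 226, 110 and 158 CPM against 794, 368 and 1034 CPM (2.22, SE 0.37, edgeR adjusted p = 0.0123). Both calls were lost when any RW pool was left out, the adjusted p of Txnip reaching 0.0708. That of Acot1 was also lost without aN1aN2 3 and with a replicate block (edgeR adjusted p = 0.150). Without muscle-like cells Txnip changed by 3.04 (1.14e-05) and Acot1 by 2.53 (9.94e-06). Th1 RNA in proportion to thyroglobulin would give 757 to 3462 CPM of Txnip and 223 to 1213 of Acot1 across the aN1aN2 pools of Th3. In aN1aN2 2 the levels, 856 and 368 CPM, were above its scaled values of 757 and 223. In aN1aN2 1 they were 1588 and 794 CPM, below its scaled 3462 and 1213. The part of thyrocyte RNA was not tested. Ucp2 differed by 0.17 (edgeR adjusted p = 0.861).

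In the erythroid label Eryth1, Ucp2 was 24.0, 31.5 and 42.5 CPM in RW and 119, 93.6 and 12.6 CPM in aN1aN2, where the groups overlapped (1.09, SE 0.53). It did not pass (edgeR adjusted p = 0.273), and could not have been tested without the aN1aN2 pools. In label Eryth2, Ucp2 was the single gene tested and was called higher (background 8.6% called, 3.94% higher). It was 70.2, 70.8 and 71.0 CPM in RW, 131, 117 and 110 CPM in aJ1aJ2, and 344, 339 and 307 CPM in aN1aN2, 3 levels with no overlap. The aN1aN2 change was 2.31 (SE 0.23, edgeR adjusted p = 1.68e-05, or 0.0760 with the replicate block), and the aJ1aJ2 change of 0.73 did not pass (edgeR adjusted p = 0.531).

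**Figure D4:**
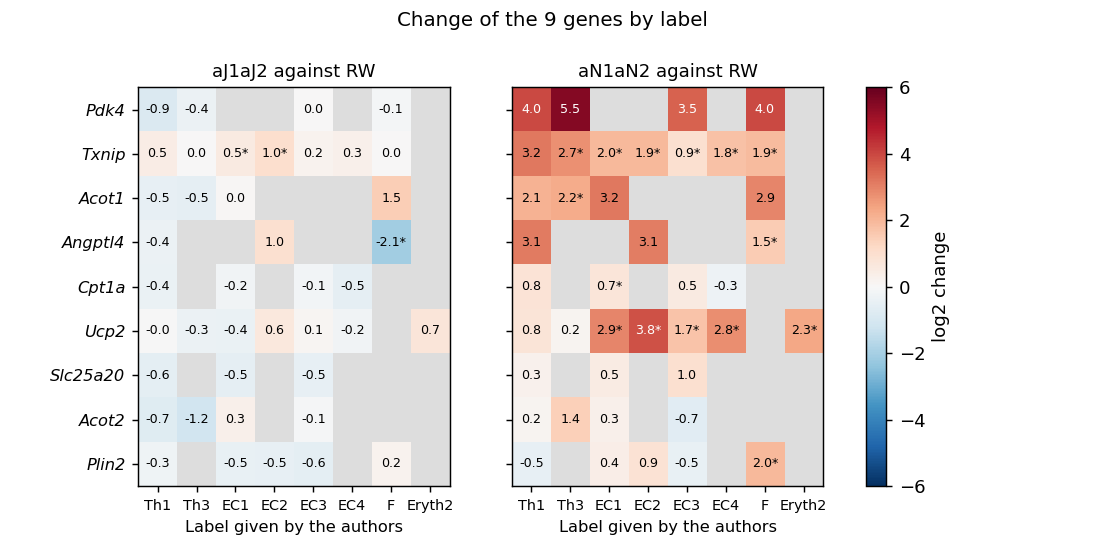
Log2 change of each gene (rows) in each label (columns) for aJ1aJ2 (left) and aN1aN2 (right) against RW. An asterisk marks an edgeR adjusted p under 0.05, Th1 and genes that passed the low-count filter only through aN1aN2 have none, and grey marks a gene not tested or with 3 or fewer UMIs in a group. Red dominates on the right, but nothing is read from the balance of colours. Most genes that passed the filter only through aN1aN2 had to be high there to be drawn. Th1 levels were in view when the genes were chosen. The left holds 3 asterisks: Txnip in EC1 and EC2, and Angptl4 in F.

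Outside Th1, ligand blockade gave calls for Txnip in EC1 and EC2 and for Angptl4 in F. In EC1, Txnip was called (background 1.43%) and was higher by 0.54 log2 units in aJ1aJ2 (SE 0.13, edgeR adjusted p = 0.0430). That call failed on leaving out aJ1aJ2 3, aJ1aJ2 4 or any RW pool, with adjusted p up to 0.334, and was 0.64 (0.00141) within title series B. In EC2, Txnip was again called (background 1.91%), at 1188 and 1679 CPM in aJ1aJ2 3 and 4 (1.02, SE 0.24, edgeR adjusted p = 0.0363), a call that failed with pools of 10 or more cells, leaving out RW 1 or aJ1aJ2 4, and within series B (0.0663), 4 of 9 alternatives. In EC3 (background 0.0618%) and EC4 (0.903%) none of the genes tested was called. Ucp2 in EC1 was lower in aJ1aJ2 by a log2 change of -0.39 that did not pass (edgeR adjusted p = 0.137).

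The effect of receptor blockade differed between labels for some of the genes, tested as the difference of the log2 change from that in EC1. For EC3 the difference was -1.24 for Ucp2 (SE 0.24, edgeR adjusted p = 0.00452) and -1.02 for Txnip (SE 0.19, edgeR adjusted p = 0.00452), where 2.39% of 7975 genes were called. The Txnip difference was lost without aN1aN2 2 (0.0514). Angptl4, high in aN1aN2 EC1 and not in EC3, is left as a description, since RW EC1 held 1 UMI.

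For F against EC1, where 5.67% of 7861 genes were called, Plin2 rose by 1.47 more in F (SE 0.40, edgeR adjusted p = 0.0211), while Ucp2 differed by -2.20 (SE 0.57, edgeR adjusted p = 0.0149) and Cpt1a by -1.75 (SE 0.51, edgeR adjusted p = 0.0333). These 3 were lost in 4, 3 and 5 of 7 alternatives: Plin2 without RW 1, RW 2, aN1aN2 1 or aN1aN2 2, Ucp2 without RW 2, aN1aN2 1 or aN1aN2 3, and Cpt1a without any RW pool, aN1aN2 2 or aN1aN2 3. For Th3 against EC1, with 0.464% of genes called, Ucp2 differed by -2.95 (SE 0.46, edgeR adjusted p = 0.00269) and kept its call in 7 of 7 alternatives.

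The wider pathway was read from 12 gene lists without the 9 members, in Th1 and EC1. The lists, like the members, were chosen with earlier results of these data known, so their tests and counts are not independent evidence. Counts and medians of the lists also include genes that met the low-count filter only with the aN1aN2 pools. Of all genes tested in Th1, 34.4% were called in aN1aN2, 17.1% higher and 17.3% lower, and the median log2 change was 0.02. Pnpla2, the first lipase of triglyceride breakdown, rose from 66.9 ± 9.57 to 272 ± 7.24 CPM (SD, n = 3; log2 change 2.02, edgeR adjusted p = 2.57e-08), and Lipe, hormone-sensitive lipase, rose by 1.47, while Mgll, the monoglyceride lipase, fell by 1.01, among 2 higher and 1 lower of 9 tested. In the ketone body list Oxct1, which serves ketone use, and Acat1 fell by 0.96 and 0.37, among 1 higher and 2 lower of 4.

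Within mitochondrial beta oxidation 4 of 15 tested genes rose in Th1, among them Eci2 (1.03), Acadl (0.59) and Acadm (0.46), and Acaa2 fell by 0.53, with a list median of 0.12. Fatty acid activation and the carnitine shuttle had 2 higher (Acsl1 0.71, Acsl3 0.43) and 1 lower (Acsl5 -0.79) of 8, and peroxisomal oxidation and thioesterases had 1 higher and 0 lower of 9. Of 5 PPAR receptors and coactivators 3 rose, Rxra (1.34), Ppargc1a (0.75) and Rxrb (0.53), with a list median of 0.53. For uptake and lipoprotein lipase, the transporter Slc27a1 rose by 1.46, Cd36 by 2.58 with pools far apart (69.0 ± 67.2 CPM in aN1aN2), and Fabp5 fell by 1.98, among 2 higher and 1 lower of 8. The uncoupling and carrier list had 1 higher (Slc25a27 1.32) and 1 lower (Slc25a5 -0.74) of 4. Slc25a27 was at 2.33 ± 0.985 CPM in RW, 2.36 ± 1.21 in aJ1aJ2 and 6.18 ± 0.538 in aN1aN2. It thus met the low-count filter of 5.48 CPM only with the aN1aN2 pools and is not read as a call.

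The FOXO and fasting list had 8 higher and 1 lower of 15 tested in Th1 (median 0.72), led by Sesn2 (2.04), Foxo3 (1.68), Irs2 (1.35) and Trib1 (0.99). The pyruvate dehydrogenase list had 3 higher, with the kinases Pdk1 (1.13) and Pdk2 (0.65), and 4 lower, with the pyruvate carrier subunits Mpc2 (-0.93) and Mpc1 (-0.73), of 13. Among partners of Txnip, Txn1, the thioredoxin it binds, fell from 1128 ± 47.0 to 490 ± 30.7 CPM (-1.20, edgeR adjusted p = 6.95e-07), Txnrd1 fell by 0.61 and Mlx by 0.70, and the related arrestin Arrdc4 rose by 1.00, in all 2 higher and 3 lower of 8. Fatty acid synthesis had 2 higher and 2 lower of 12, with Elovl6 (-1.15), Srebf1 (0.74), Me1 (-0.61) and Scd2 (0.37). The other list medians in Th1 were 0.83 for uptake, 0.18 for peroxisomal oxidation, 0.16 for activation, 0.11 for synthesis, -0.08 for droplets and lipolysis, -0.12 for ketones and for uncoupling, -0.19 for pyruvate dehydrogenase and -0.25 for Txnip partners.

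**Figure D5:**
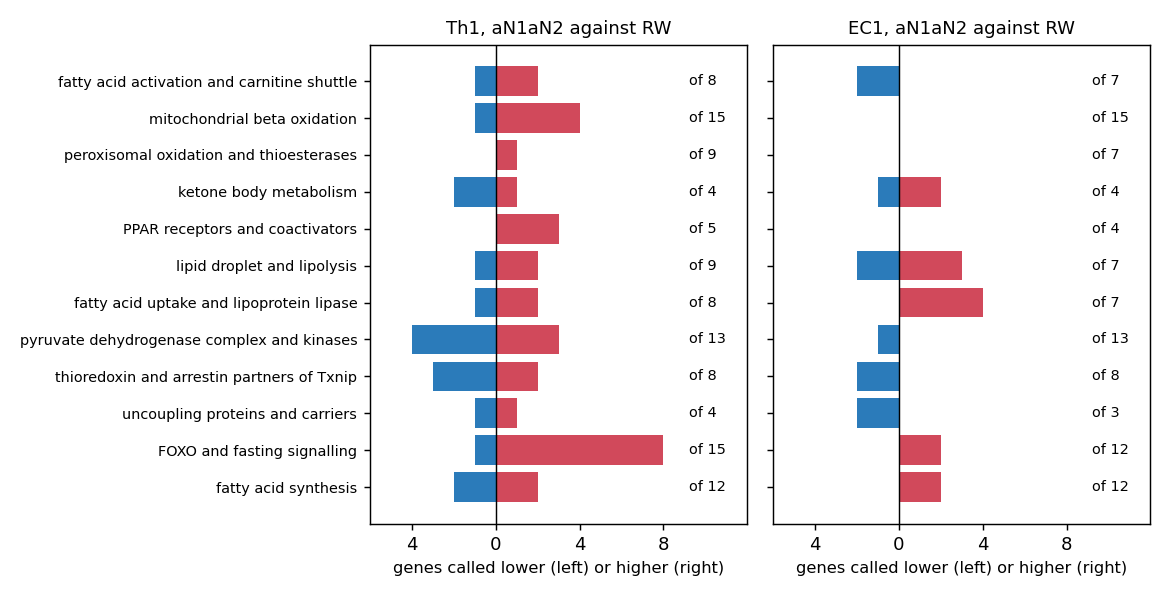
Genes of each of 12 pathway lists called higher (red, right of 0) or lower (blue, left of 0) in aN1aN2 against RW, by edgeR at adjusted p under 0.05, in Th1 (left) and EC1 (right), with the number tested beside each bar. The FOXO and fasting list has the longest bar to the right in Th1 (8 of 15), and the uptake and lipoprotein lipase list in EC1 (4 of 7). The lists were chosen with earlier results known, and some genes met the low-count filter only with the aN1aN2 pools.

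Of all genes tested in EC1, 17.8% were called in aN1aN2, 8.83% higher. Uptake genes had 4 higher and 0 lower of 7 tested in EC1 and a list median of 0.54, against -0.01 over all genes. Cd36, a fatty acid receptor, rose from 61.6 ± 27.0 to 626 ± 57.3 CPM (3.31, edgeR adjusted p = 1.22e-06), and Gpihbp1, which holds lipoprotein lipase on capillaries, from 1442 ± 145 to 3488 ± 157 CPM (1.24, edgeR adjusted p = 1.55e-06). Lpl rose by 2.40 and Fabp4 by 0.54. Pnpla2 rose as in Th1, from 87.7 ± 25.2 to 480 ± 24.1 CPM (2.40, edgeR adjusted p = 5.49e-09), Mgll fell by 1.19 and Hilpda by 1.78, among 3 higher and 2 lower of 7 droplet and lipolysis genes. In the ketone body list Oxct1 fell by 0.99, among 2 higher and 1 lower of 4. That count and the list median include a gene that met the low-count filter only with the aN1aN2 pools.

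Beta oxidation had 0 calls of 15 in EC1 (median -0.01), the PPAR list 0 of 4, and the peroxisomal list 0 of 7. The activation list had 0 higher and 2 lower of 7, Acsl5 (-0.72) and Acsl3, at 14.0 ± 0.464 CPM in RW and 1.52 ± 2.64 CPM in aN1aN2. Txn1 (-0.85) and Arrdc3 (-2.03) fell among 8 partners of Txnip, Mpc1 (-0.57) among 13 pyruvate dehydrogenase genes, and Slc25a4 (-0.87) and Slc25a5 (-0.61) among 3 carriers. In the FOXO list Sesn1 (2.40) and Foxo3 (1.07) were the 2 called of 12, both higher, and in fatty acid synthesis Thrsp (1.57) and Acacb (2.03) were the 2 of 12. The other list medians in EC1 were 1.09 for ketones, 0.43 for synthesis, 0.39 for droplets and lipolysis, 0.36 for FOXO, 0.34 for pyruvate dehydrogenase, 0.25 for PPAR, 0.12 for activation, 0.11 for peroxisomal oxidation, 0.02 for Txnip partners and -0.61 for uncoupling. Under ligand blockade 2 of 110 list genes were called in Th1 (1.82%, against 0.612% of all genes), Elovl6 (-0.58, edgeR adjusted p = 0.0309) and Scd2 (0.49, 0.0481). In EC1 2 of 99 were called (2.02%, against 1.43% of all genes), Hilpda (-1.21, edgeR adjusted p = 0.00113) and Lpl (1.50, 0.00234).

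Genes whose pattern was most like each member were ranked by Pearson's r of log2 CPM over 105 sums of pool and label, among 6185 genes. The sums share libraries and cell types, so r is only a description. Pdk4 was closest to Errfi1 (0.76) and Ndrg2 (0.72), and Angptl4 to Errfi1 (0.80), Steap4 (0.78) and Pdgfrb (0.78). Ucp2 was closest to Inpp5d (0.75), Mfng (0.74) and Prkch (0.69). Txnip was closest to Zfp36l1 (0.94), Irf2bp2 (0.93) and Sypl (0.92), and Acot1 to Mt1 (0.85), Chchd10 (0.83) and Mt2 (0.83). For Slc25a20 the closest were Ttc1 (0.74), Arl8b (0.74) and Acadl (0.74), for Acot2 Calcoco1 (0.82), Gde1 (0.82) and Pde4dip (0.82), for Cpt1a Slu7, Herpud2 and Sp3 (all 0.86), and for Plin2 Mrfap1 (0.87), Stx7 (0.87) and Vps26a (0.86). Among the members themselves, r was 0.67 between Angptl4 and Pdk4, 0.61 between Pdk4 and Txnip and -0.13 between Pdk4 and Ucp2.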

How the data were processed

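Single thyroid cells were profiled with the 10x Genomics 3' kit, and per the submitters' processing notes with Cell Ranger and GRCm38. The authors deposited raw counts of UMIs per gene and cell with a table of cell labels; 2619 annotation lines with a shifted column were corrected on reading. Other alignment, counting and filter settings, strand use among them, are not given in the sources used here. Counts were summed per pool and label, and edgeR 4.0.16 fitted quasi-likelihood models to the sums (R 4.3.3, filterByExpr, TMM, Benjamini-Hochberg adjustment over all genes of a label, threshold 0.05), using pools with at least 20 cells in 1 fit of all groups. Log2 changes come from that fit. Members that met the filter only with the aN1aN2 pools are described without a test, and the shares of all genes called include such genes. Levels and statements on overlap use plain CPM. Ratios with 3 or fewer UMIs in a group have exact 95% counting intervals. Intervals and floors (3 counts) cover counting error only. No doublet caller was run.

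Members and lists were chosen with earlier results of these data known. The naming rule took all 9 members, at most 4 called genes per list and contrast in Th1 and EC1 by size of change, and the 3 most alike genes per member, by log2 CPM with a prior count of 2 among genes of mean CPM 20 or more. A few genes that the rule names are not reported here. Genes were placed with GENCODE annotation of GRCm38, and 52403 of 52636 identifiers matched a symbol. On simulated counts, the shares of 2-fold and 4-fold changes recovered were 72.4% and 98% in Th1 (10627 genes), 44.8% and 78.6% in EC1 (9369 genes) and 27.8% and 90.4% in F (4840 genes). Alternatives were DESeq2 1.42.0 (its test, or its size factors), no filter, pools of 10 or more cells, each pool left out, title series as a term or series B alone, Th1 pooled with Th3, and the replicate block. Added after values were seen were Th3 without muscle-like cells, and the left-out pools and size factors for differences between labels.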

Additional observations from a re-analysis of the deposited data

Results flagged for a closer look

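The effect of receptor blockade differed between labels by a test of the difference in log2 change from EC1, with edgeR adjusted p-values over all genes. For EC3 the differences were -6.99 for Angptl4 (SE 1.04), -1.24 for Ucp2 and -1.02 for Txnip. For F they were -5.33 for Angptl4 (SE 0.67), -2.20 for Ucp2, -1.75 for Cpt1a and 1.47 for Plin2. For Th3 it was -2.95 for Ucp2. Both Angptl4 values are descriptions: RW EC1 held 1 UMI, so their size depends on the prior count, and Angptl4 passed the low-count filter in EC1 only through aN1aN2.

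For Plin2, every aN1aN2 pool was below every RW pool in Th1 (log2 change -0.51) and EC3 (-0.46), and above every RW pool in EC1 (0.38), EC2 (0.88) and F (1.97). The F change alone passed (edgeR adjusted p = 0.000536). EC1 (0.230) and EC3 (0.616) did not, EC2 passed the low-count filter only through aN1aN2 and Th1 has no test. The differences of Th1 from EC1, EC2 and F, and of EC3 from EC2 and F, were not tested.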

How the results depend on the processing

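Counts of genes called (edgeR unless named, adjusted p under 0.05) moved by over 1.5 times as follows, with the reported count in brackets. With the DESeq2 test, aN1aN2 against RW gave 252 (388) in EC2 and 410 (654) in EC4, aJ1aJ2 against RW gave 103 (65) in Th1 and 21 (48) in EC2, and aN1aN2 against aJ1aJ2 gave 22 (122) in SM. With no filter on low counts, aN1aN2 against RW gave 594 (383) in EC3, 421 (105) in Th3 and 14 (24) in Eryth2, aJ1aJ2 against RW gave 424 in Th1, 356 (134) in EC1, 150 in EC2 and 105 (28) in F, and SM gave 30. Pools of at least 10 cells gave 234 for aN1aN2 in EC3 and 14 for aJ1aJ2 in EC2. For aJ1aJ2 against RW, a title series term gave 135 in Th1 and 54 in F, series B alone gave 649 in Th1, 632 in EC1 and 71 in F, and Th1 pooled with Th3 gave 30. Without muscle-like cells, chosen after seeing the data, Th3 gave 291. The causes were not tested.

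Leaving out 1 pool at a time, aN1aN2 against RW gave 2689 to 3280 (3653) in Th1, 1188 to 1598 (1664) in EC1, 256 to 295 in EC2, 210 to 360 in EC3, 465 to 571 in EC4, 661 to 939 (958) in F, 8 to 103 in Th3 and 7 to 25 in Eryth2. For aJ1aJ2 against RW the ranges were 1 (without aJ1aJ2 3) to 530 (without aJ1aJ2 1) in Th1, 38 to 386 in EC1, 13 to 55 in EC2 and 4 to 44 in F, and SM gave 48 to 149. Differences from EC1 gave 71 to 79 (94) for EC2, 66 to 228 (191) for EC3, 10 to 37 (28) for EC4, 265 to 379 (446) for F and 5 to 30 (31) for Th3. Where an arm kept 1 pool, that pool was assumed to vary like the others.

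Same-numbered RW and aN1aN2 pools did not deviate together in Th1 (r = 0.0244 and -0.0134, crossed numbers 0.1042 and 0.0081). With so few pairs this cannot decide whether the numbers pair pools. A replicate block gave 53 genes in Th3 and 0 in Eryth2, where 59 had an unadjusted edgeR p under 0.05 and the DESeq2 test, without the block, called 29. Among the 9 genes the block ended 3 calls: Txnip in EC3 (edgeR adjusted p = 0.208), Acot1 in Th3 (0.150) and Ucp2 in Eryth2 (0.0760).

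Among the values of the 9 genes under the alternatives, 16 of those with a test changed sign, in comparisons that were not called, and so did 7 of the Th1 values, which have no test. With 1 pool left out, Slc25a20 in EC1 ranged from -0.11 to 0.75 and Ucp2 in Th3 from -0.43 to 0.56 (aN1aN2 against RW). For aJ1aJ2 against RW, Acot1 in EC1 ranged from -0.55 to 0.30, Angptl4 in EC2 from -0.66 to 1.62, Pdk4 in F from -0.74 to 0.26 and Txnip in F from -0.26 to 0.15. Txnip in SM (aN1aN2 against aJ1aJ2) ranged from -0.0893 to 0.36. Ucp2 in Th3 was -0.0636 with no filter, and Angptl4 in EC2 under aJ1aJ2 was -0.45 with pools of at least 10 cells. For aJ1aJ2 in Th1, Angptl4 (-0.37) changed sign in 4 alternatives, ranging from -1.38 to 0.69, and Ucp2 (-0.021) in 3, from -0.17 to 0.080. Of the other tested values, 211 kept a call, 38 kept the direction of a called gene but not the call, and 259 stayed uncalled with the same direction. Genes that met the low-count filter only with the aN1aN2 pools gave 80 and 15 more of the first 2 kinds, which are not read as calls. The other 216 Th1 values kept their direction, and 7 of these moved by more than the spread between pools.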

Other observations

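Labels M, T1 and S held too few aN1aN2 cells for a test of that group, and label P too few cells for any test, so these values are given as they stand. For aJ1aJ2 against RW, Ucp2, Txnip and Plin2 in M (edgeR adjusted p = 0.9996 for each), Ucp2 and Txnip in T1 (0.9986 for each) and Txnip in S (0.905) were tested and did not pass. In label M, Ucp2 was 822, 734 and 1312 CPM in RW, 942, 820 and 1021 CPM in aJ1aJ2, and 2146, 2224 and 1606 CPM in aN1aN2 pools of 9, 3 and 10 cells. Txnip in T1 was 120 to 232 CPM in RW and 556 to 639 CPM in aN1aN2 pools of 18, 10 and 14 cells. In the Schwann-marker label S, pooled over 62 RW, 94 aJ1aJ2 and 37 aN1aN2 cells, Angptl4 was 82.5, 22.5 and 525 CPM, Pdk4 17.7, 26.3 and 330 CPM, and Txnip 304, 353 and 1477 CPM. Angptl4 counted 28, 6 and 27 UMIs there, and was lowest in aJ1aJ2 and highest in aN1aN2. In the parathyroid-marker label P, pooled over 15, 25 and 37 cells, Acot1 was 29.4, 7.44 and 148 CPM and Txnip 33.6, 78.1 and 389 CPM. Labels Th2 and T2 were not tested either, and T2 held no aN1aN2 cells. Txnip in Th2 was 137 to 254 CPM in RW pools of 16, 10 and 13 cells. It was 3457 to 3629 CPM in aN1aN2 pools of 16, 17 and 16 cells, where thyroglobulin scaling gave 709 to 1330. The label Eryth1 had cells enough, but Txnip there was too rare to test. It counted 3 UMIs in RW and 54 in aN1aN2, a ratio of 30.1 (95% counting interval 9.78 to 151). Thyroglobulin scaling gave 16.6 to 41.6 CPM of Txnip in those aN1aN2 pools, which held 31.6 to 115; its part was not tested.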
